A study of Mus musculus with 7 samples.

Results

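The transcripts described here are those of 8 genes of inflammatory caspases and lytic cell death, Casp1, Casp4, Casp12, Gsdmd, Casp8, Ripk1, Ripk3 and Mlkl. They were found by gene name among the 22053 protein-coding entries of the deposited table, and all 8 were listed. RNA of whole kidney cortex was sequenced from 4 BPS-TA kidneys (TC-7 and TC-8, TC-11 and TC-12, where TC stands for triple cross) and 3 WT kidneys (WT-5, WT-6 and WT-7). Within each group, values of single kidneys are given in this order. BPS-TA mice are biallelic for each of 3 transgene sets (GGT-TTA, GGT-HIF1A_M3 and BPS-TRE-CAS9n). In these mice the ggt promoter of the proximal tubule drives the transactivator tTA. tTA switches on a Cas9 nickase that is expressed with paired guides against Bap1, Pbrm1 and Setd2. The same promoter drives a constitutively active HIF1A (the TRACK model of clear cell renal cell carcinoma). WT mice carry none of these transgenes. Both groups were C57BL/6 mice on regular chow, with the number 10 as the labelled age in a wording that names both months and weeks. The nickase line came from 1 engineered embryonic stem cell clone, and the share of edited cells was not measured here. No kidney with TRACK alone was analysed here, so the HIF1A transgene and the gene edits cannot be told apart. The mouse behind each kidney is not known, and p-values measure the spread between these kidneys only.

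Caspases are proteases that start or carry out cell death. Inflammasomes, which are assemblies of a sensor, an adaptor and caspase-1, cut interleukin-1β and interleukin-18 and the pore protein gasdermin D, and the cell then bursts by pyroptosis. Caspase-8 stands at the branch between apoptosis and necroptosis, since it cuts RIPK1 and RIPK3 and so holds back necroptosis, in which RIPK3 phosphorylates MLKL and MLKL breaks the plasma membrane. In the kidney these pathways are studied in acute injury of the tubules and in macrophages. The activity of these proteins is set largely by cleavage and phosphorylation, which transcript levels do not measure.

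With the values as deposited, 5 of the 8 genes were higher in BPS-TA kidneys, namely the inflammatory caspase genes Casp1, Casp4 and Casp12, the pore gene Gsdmd and the initiator caspase gene Casp8. The mean FPKM (fragments scaled to transcript length and to the size of the library, a unit inferred from the values) of the first 4 was 1.82 to 2.18 times that in WT kidneys, and that of Casp8 1.23 times. Ripk1 did not pass the test, and Ripk3 and Mlkl were too low to enter it. Genes were tested with limma on log2(FPKM + 1) where the FPKM was at least 1 in at least 3 kidneys, at a Benjamini-Hochberg adjusted p under 0.05, and 6 of the 8 genes were among the 12036 tested. Of all tested genes 28.5% passed as higher and 6.56% as lower in BPS-TA kidneys, so increases were common in these kidneys. The median tested gene had a log2 fold change of 0.12. After either scaling that takes such a general shift away, none of the 5 genes passed and Ripk1 passed as lower. Markers of macrophages, of leukocytes in general, of B and plasma cells and of endothelium were higher too. Those tested of T and NK cells and of neutrophils did not pass. More cells of a type and more RNA per cell therefore cannot be told apart in whole cortex.

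**Figure D1:**
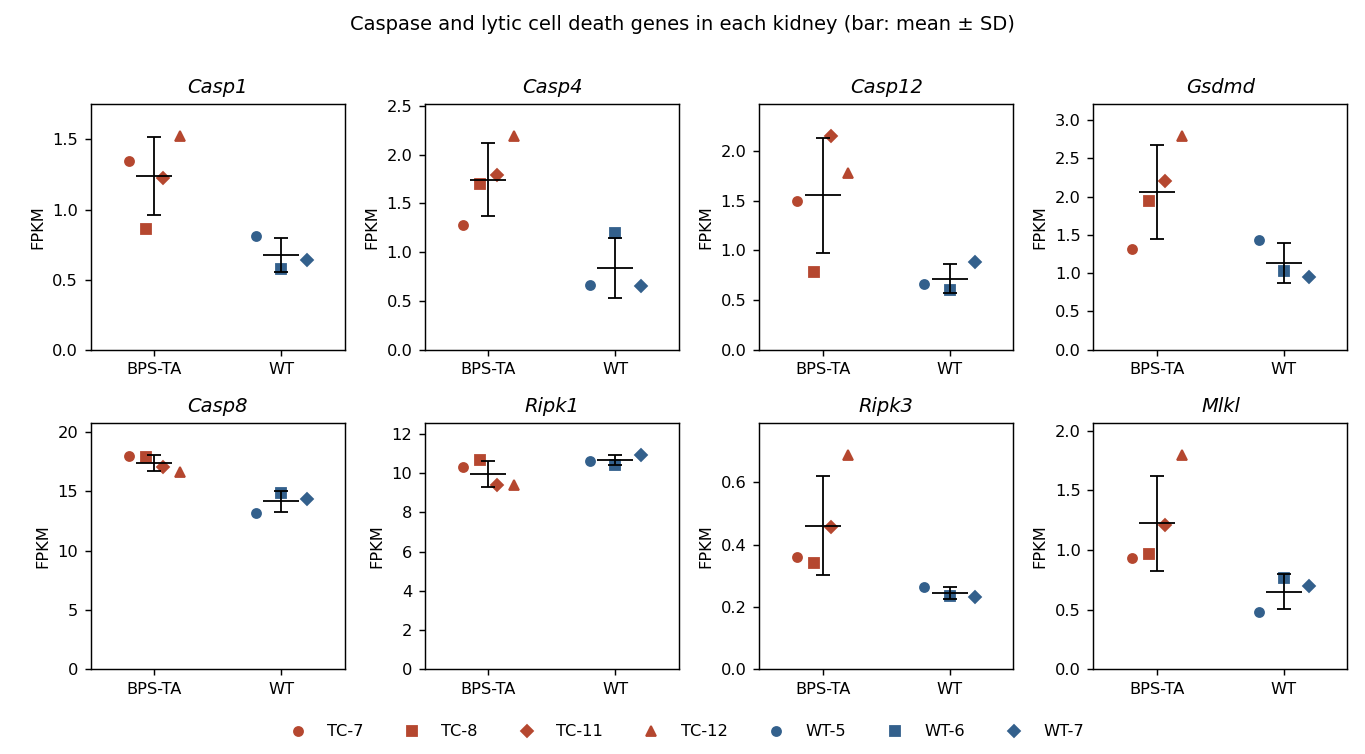
FPKM of the 8 genes (vertical axes, each from 0) in each of 4 BPS-TA kidneys (red) and 3 WT kidneys (blue), with a symbol per kidney and the mean ± SD as bars. For Casp1, Casp4, Casp8, Ripk3 and Mlkl all BPS-TA kidneys lie above all WT kidneys, while for Casp12, Gsdmd and Ripk1 the groups overlap.

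The inflammatory caspase genes were low in both groups. Casp1 (ENSMUSG00000025888), which encodes the protease of the canonical inflammasome, had 1.35, 0.862, 1.23 and 1.53 FPKM in the BPS-TA kidneys, against 0.810, 0.577 and 0.639 FPKM in the WT kidneys. All 4 BPS-TA values lay above the WT values, with TC-8 closest to the WT kidneys. Casp1 averaged 1.24 ± 0.281 FPKM in BPS-TA kidneys (SD, n = 4) and 0.675 ± 0.121 FPKM in WT kidneys (SD, n = 3), a log2 fold change on the log2(FPKM + 1) scale of 0.41 (SE, the standard error, 0.118, adjusted p = 0.0288 from limma). The permutation test gave p = 0.0571 (exact, two-sided, over 35 splits of the kidneys), where the smallest p that 4 against 3 kidneys allow is 0.0286. Casp1 did not pass without WT-6 (adjusted p = 0.0972 from limma) or WT-7 (0.0846).

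Casp4 (ENSMUSG00000033538) encodes the protein known in mice as caspase-11, which binds bacterial lipopolysaccharide in the cytosol and cuts gasdermin D without an inflammasome sensor. Its FPKM was 1.28, 1.70, 1.79 and 2.19 in the BPS-TA kidneys, against 0.664, 1.19 and 0.653 in the WT kidneys. The groups did not overlap, although WT-6 came close to TC-7. The mean was 1.74 ± 0.374 FPKM in BPS-TA kidneys (SD, n = 4) and 0.836 ± 0.309 FPKM in WT kidneys (SD, n = 3), 2.08 times as high (log2 fold change 0.58, SE 0.145, adjusted p = 0.0168 from limma, with p = 0.0571 in the exact permutation test). Casp4 did not pass without WT-5 (adjusted p = 0.0553 from limma) or WT-7 (0.0646).

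Casp12 (ENSMUSG00000025887), an inflammatory caspase gene studied in the stress of the endoplasmic reticulum in mice, had 1.50, 0.786, 2.15 and 1.78 FPKM in the BPS-TA kidneys, against 0.660, 0.602 and 0.879 FPKM in the WT kidneys. TC-8 lay within the WT range, whereas the other BPS-TA kidneys lay above it. With means of 1.55 ± 0.577 FPKM in BPS-TA kidneys (SD, n = 4) and 0.714 ± 0.146 FPKM in WT kidneys (SD, n = 3), the log2 fold change was 0.55 (SE 0.183, adjusted p = 0.0486 from limma, p = 0.0857 in the exact permutation test). This call was lost without WT-5 (adjusted p = 0.113 from limma), WT-6 (0.136) or WT-7 (0.0782). Casp1 and Casp12 each reached an FPKM of 1 in 3 kidneys, all of them BPS-TA, and so entered the test only through the group in which they were higher. The value of 1 added before taking logs lowers the fold changes of such low genes. With 0.1 added the log2 fold change was 0.77 for Casp1, 0.96 for Casp12 and 0.79 for Gsdmd.

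Casp1, Casp4 and Casp12 are neighbours on mouse chromosome 9. Their starts lie in this order on the plus strand of GRCm38.p6, 10.3 kb apart for Casp1 and Casp4 and 36.6 kb apart for Casp4 and Casp12. The 250 bases before the start of each are shown so that the regulatory sequence of these neighbours can be compared. Their calls are no ground for this, since Casp1 and Casp12 entered the test only through BPS-TA kidneys. None of these neighbours passed after either change of scaling. The sequences are from RefSeq on GRCm38.p6, at chr9:5298267-5298516 for Casp1, chr9:5308599-5308848 for the first of the Casp4 starts and chr9:5345226-5345475 for Casp12, each on the plus strand. Capitals mark the letters CACGTG in Casp1 (which hold ACGTG on both strands, the core of hypoxia response elements), an NF-kB-like motif in Casp4 (GGG and TTTCC with any 2 bases between them, on either strand) and TTCNNNGAA in Casp12 (the STAT motif).
Casp1: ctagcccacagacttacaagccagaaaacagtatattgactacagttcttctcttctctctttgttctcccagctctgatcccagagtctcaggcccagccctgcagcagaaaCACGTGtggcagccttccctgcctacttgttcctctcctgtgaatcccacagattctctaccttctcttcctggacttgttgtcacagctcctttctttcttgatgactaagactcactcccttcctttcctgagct
Casp4: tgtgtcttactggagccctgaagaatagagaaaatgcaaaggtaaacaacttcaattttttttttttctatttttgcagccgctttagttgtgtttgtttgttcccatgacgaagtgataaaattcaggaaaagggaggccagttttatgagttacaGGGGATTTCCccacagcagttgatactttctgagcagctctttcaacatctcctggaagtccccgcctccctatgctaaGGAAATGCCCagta
Casp12: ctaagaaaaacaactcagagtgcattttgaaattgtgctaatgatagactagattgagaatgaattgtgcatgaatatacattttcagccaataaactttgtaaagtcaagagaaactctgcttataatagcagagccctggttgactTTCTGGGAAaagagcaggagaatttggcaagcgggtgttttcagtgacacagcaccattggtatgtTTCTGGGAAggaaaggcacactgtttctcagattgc

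Each neighbour held a different one of the 4 motifs that were searched on both strands. The hypoxia cores in Casp1, a pair sharing letters, begin at bases -137 and -136, counted from -1 as the last base before the start. The NF-kB-like letters in Casp4 begin at -93 and at -14 (the second on the other strand), and the STAT letters in Casp12 at -102 and -36. Of the 32851 promoters of this length in the RefSeq table, 38.6% hold the hypoxia core (ACGTG or GCGTG), 1.41% the NF-kB-like letters and 7.02% the STAT letters. The interferon response letters (a pair of GAAA with any 2 bases between them), which 2.98% hold, were in none of the 3 sequences. These are matches of letters only, and binding was not measured.

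Gsdmd (ENSMUSG00000022575) encodes gasdermin D, whose cut end forms the pore of pyroptosis. Its FPKM was 1.32, 1.94, 2.21 and 2.80 in the BPS-TA kidneys, against 1.43, 1.03 and 0.943 in the WT kidneys. TC-7 lay below WT-5, so the groups overlapped, while the other BPS-TA kidneys were above all WT kidneys. The mean was 2.07 ± 0.614 FPKM in BPS-TA kidneys (SD, n = 4) and 1.13 ± 0.259 FPKM in WT kidneys (SD, n = 3), with a log2 fold change of 0.51 (SE 0.166, adjusted p = 0.0452 from limma, p = 0.0857 in the exact permutation test). This call was lost in 9 of 13 alternatives, among them those without WT-6, WT-7, TC-8, TC-11 or TC-12 (highest adjusted p = 0.138 with a single kidney left out).

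Dfna5, the older name under which gasdermin E is listed, was also higher, at 7.12 ± 0.183 FPKM in BPS-TA kidneys (SD, n = 4) and 5.57 ± 0.510 FPKM in WT kidneys (SD, n = 3; adjusted p = 0.0119 from limma). Its call was lost with both changes of scaling and without TC-11 and TC-12 together (highest adjusted p = 0.280 from limma). Gasdermin E is another pore protein of this family. Ninj1, whose product ruptures the membrane after the pores have formed, stood at 87.2 ± 9.92 FPKM in BPS-TA kidneys and 84.3 ± 2.96 FPKM in WT kidneys and did not pass (log2 fold change 0.042, adjusted p = 0.733 from limma). Of the other gasdermin genes, Gsdmc was listed at 0 in every kidney and Gsdma at 0 in all but 1 BPS-TA and 1 WT kidney. The gene of the final rupture step was far more abundant than those of the caspases and did not pass the test.

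Casp8 (ENSMUSG00000026029), the initiator caspase gene of death receptors, was the most abundant of the 8. It had 18.0, 17.9, 17.0 and 16.6 FPKM in the BPS-TA kidneys, against 13.2, 14.9 and 14.4 FPKM in the WT kidneys. The BPS-TA kidneys lay close together and above all WT kidneys. Casp8 averaged 17.4 ± 0.653 FPKM in BPS-TA kidneys (SD, n = 4) and 14.2 ± 0.883 FPKM in WT kidneys (SD, n = 3). The log2 fold change was 0.28 (SE 0.0614, adjusted p = 0.0101 from limma), with p = 0.0286 in the exact permutation test, the smallest possible. This call held with each kidney left out and was lost with both changes of scaling.

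Ripk1 (ENSMUSG00000021408) encodes the kinase and scaffold that death receptors recruit before caspase-8 or RIPK3 acts. It had 10.3, 10.7, 9.39 and 9.41 FPKM in the BPS-TA kidneys, against 10.6, 10.4 and 10.9 FPKM in the WT kidneys. Only TC-8 lay within the WT range, and the other 3 BPS-TA kidneys lay below it. The log2 fold change of -0.091 (SE 0.0651) did not pass (adjusted p = 0.304 from limma, p = 0.200 in the exact permutation test).

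Ripk3 (ENSMUSG00000022221), the kinase gene of necroptosis, was the lowest of the 8 in both groups. It had 0.360, 0.340, 0.458 and 0.687 FPKM in the BPS-TA kidneys, against 0.265, 0.236 and 0.233 FPKM in the WT kidneys. All BPS-TA kidneys lay above all WT kidneys, and TC-12 stood highest. Ripk3 averaged 0.461 ± 0.159 FPKM in BPS-TA kidneys (SD, n = 4) and 0.245 ± 0.0180 FPKM in WT kidneys (SD, n = 3), 1.89 times as high, without passing the exact permutation test (p = 0.0857). Since the RefSeq start of Ripk3 is preceded by more hypoxia cores than that of any other of the 7 genes with a promoter in the table, its sequence is shown with the cores, ACGTG or GCGTG on either strand, in capitals (minus strand, chr14:55788858-55789107 of GRCm38.p6, written in the direction of the gene).
Ripk3: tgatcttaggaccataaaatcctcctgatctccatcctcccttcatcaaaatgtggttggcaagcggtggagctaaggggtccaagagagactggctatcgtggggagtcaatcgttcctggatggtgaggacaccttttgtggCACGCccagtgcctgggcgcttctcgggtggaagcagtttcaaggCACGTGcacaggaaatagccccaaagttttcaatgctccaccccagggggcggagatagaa

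The cores begin at bases -106, -61 and -60, the last pair sharing letters. Casp1 held a pair sharing letters at -137 and -136, Ripk1 held 1 before each of its starts (-14 and -74) and Mlkl 1 at -24. As 38.6% of promoters hold at least 1 core, its presence alone sets no gene apart. Mlkl (ENSMUSG00000012519), the gene of the membrane-breaking protein, had 0.929, 0.969, 1.20 and 1.79 FPKM in the BPS-TA kidneys, against 0.484, 0.765 and 0.696 FPKM in the WT kidneys. As for Ripk3, the groups did not overlap and TC-12 was highest. The mean was 1.22 ± 0.398 FPKM in BPS-TA kidneys (SD, n = 4) and 0.648 ± 0.147 FPKM in WT kidneys (SD, n = 3), 1.89 times as high (p = 0.0571 in the exact permutation test). Only 2 kidneys reached an FPKM of 1. When all genes were admitted to limma, neither passed (adjusted p = 0.0822 for Ripk3 and 0.0687 for Mlkl).

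The order of the mean FPKM was the same in both groups, with Casp8 first, then Ripk1, Gsdmd, Casp4, Casp12, Casp1, Mlkl and Ripk3. Casp8, Ripk1 and Ripk3 stood apart from their neighbours in this order in both groups. From Gsdmd to Mlkl, the ranges of each pair of neighbours overlapped in both groups. Among BPS-TA kidneys TC-12 had the highest value of 5 of the 8 genes, and TC-7, TC-8 and TC-11 of 1 each. The coefficient of variation among BPS-TA kidneys was 3.76% for Casp8 and 6.63% for Ripk1, against 21.5% for Casp4 and 37.2% for Casp12. In all, BPS-TA kidneys lay above WT kidneys without overlap for 5 of the 8 genes, 3 of them among the 6 tested, and below them for none. Among all 12036 tested genes 4212 lay above and 1068 below, 43.9% without overlap in either direction and 8.87% below.

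The steps of a pathway were then set against each other within each kidney, as log2 ratios of FPKM + 1, to ask whether 2 genes responded differently. Ripk3 relative to Ripk1 averaged -2.91 ± 0.228 in BPS-TA kidneys (SD, n = 4) and -3.23 ± 0.0405 in WT kidneys (SD, n = 3), a difference of 0.32 with groups that did not overlap. Its p was 0.0857 in the exact permutation test, or 0.214 adjusted over the 5 pairs compared. The difference was 0.13 for Casp1 relative to Casp8, -0.033 for Casp12 relative to Casp4, 0.095 for Gsdmd relative to Casp1 and 0.19 for Mlkl relative to Ripk3. None of the 5 ratios passed (adjusted p from 0.214 to 0.886, exact permutation tests), and with so few kidneys this does not show that the genes respond alike.

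Which of the genes passed changed with the scaling between kidneys. With each kidney centred on its median, log2 fold changes were 0.24 for Casp1 (adjusted p = 0.155 from limma), 0.41 for Casp4 (0.0584), 0.37 for Casp12 (0.169), 0.33 for Gsdmd (0.141) and 0.10 for Casp8 (0.265). After quantile normalization they were 0.050 (adjusted p = 0.794), 0.25 (0.206), 0.18 (0.541), 0.21 (0.324) and 0.15 (0.116) in that order. All 5 therefore stayed above 0 and none passed. Ripk1 passed as lower under both, with a log2 fold change of -0.27 (adjusted p = 0.0180 with centring and 0.0216 after quantile normalization). In all, 2480 of the 12036 tested genes passed as lower with centring and 1724 after quantile normalization, against 790 with the deposited values. The median of all tested genes moved to -0.054 with centring and to -0.036 after quantile normalization.

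**Figure D2:**
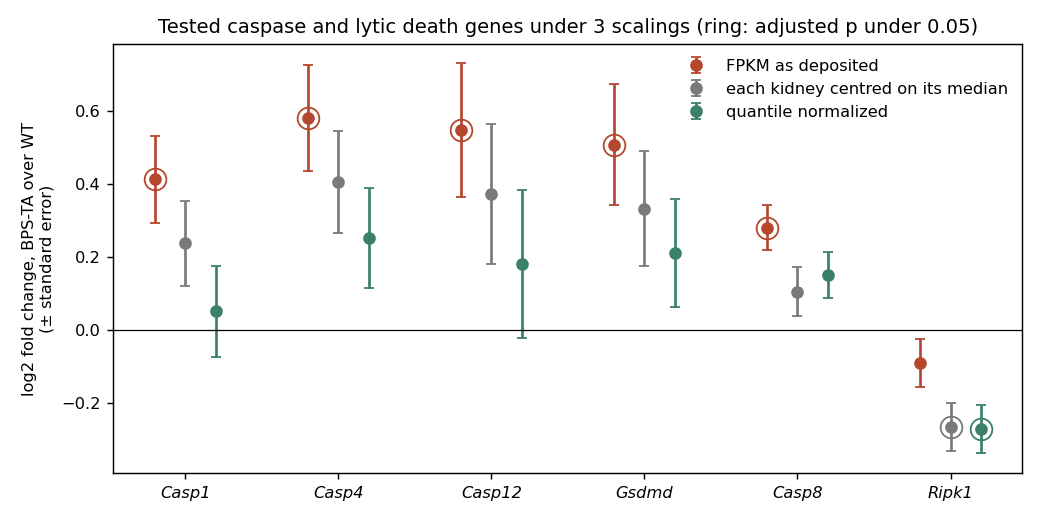
Log2 fold change of BPS-TA over WT kidneys (vertical axis, ± standard error from limma) for the 6 tested genes with the FPKM as deposited (red), each kidney centred on its median (grey) and quantile normalization (green), where a ring marks an adjusted p under 0.05. Rings lie on 5 genes with the deposited values and on Ripk1 alone under the other scalings.

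Upstream of caspase-1 stand the sensors and the adaptor of the inflammasome. Of 26 listed sensor, adaptor and interleukin genes 12 were tested, of which 3 were higher and 1 was lower, with a median log2 fold change of 0.20. These shares are near those of all tested genes (28.5% higher and 6.56% lower), so the count sets the list apart in neither direction. Pycard, whose product ASC links sensors to caspase-1, averaged 15.9 ± 2.41 FPKM in BPS-TA kidneys (SD, n = 4) and 10.2 ± 1.10 FPKM in WT kidneys (SD, n = 3; log2 fold change 0.58, adjusted p = 0.00907 from limma, or 0.0630 without TC-11 and TC-12 together). Il18bp, the gene of a decoy that binds interleukin-18, and Ifi204, a DNA-binding protein gene induced by interferon, were higher as well (log2 fold change 0.53 and 0.44, adjusted p = 0.00452 and 0.00641 from limma), although Ifi204 has close copies with which it may share reads and reached an FPKM of 1 in BPS-TA kidneys alone. Nlrc4, the sensor gene for bacterial flagellin and secretion systems, went the other way. It had 0.840, 0.877, 0.937 and 0.767 FPKM in the BPS-TA kidneys, against 1.52, 1.83 and 1.90 FPKM in the WT kidneys. The groups were far apart (log2 fold change -0.57, SE 0.0839, adjusted p = 0.00197 from limma), but Nlrc4 reached an FPKM of 1 in WT kidneys alone and so entered the test only through the group in which it was higher.

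A pair of sensors under the filter, chosen after their values were seen, had wide gaps between the groups. Nlrp10 (ENSMUSG00000049709), a member of the NLR family, had 0.726, 0.795, 1.11 and 0.955 FPKM in the BPS-TA kidneys, against 0.0295, 0.0392 and 0.00853 FPKM in the WT kidneys (p = 0.0286 in the exact permutation test). Aim2 (ENSMUSG00000037860), the sensor gene for cytosolic DNA, had 0.593, 0.905, 1.44 and 1.36 FPKM in the BPS-TA kidneys, against 0.176, 0.171 and 0.274 FPKM in the WT kidneys (p = 0.0571, exact). For both, all BPS-TA kidneys lay above all WT kidneys. Nlrp3, the best known sensor gene, averaged 0.171 ± 0.0796 FPKM in BPS-TA kidneys (SD, n = 4) and 0.137 ± 0.0286 FPKM in WT kidneys (SD, n = 3; p = 0.543, exact permutation test). The substrate genes did not pass, with Il18 at 2.90 ± 0.791 FPKM in BPS-TA kidneys and 2.84 ± 0.284 FPKM in WT kidneys (adjusted p = 0.999 from limma) and Il1b at 1.10 ± 0.204 and 0.907 ± 0.373 FPKM in BPS-TA and WT kidneys (adjusted p = 0.431 from limma).

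**Figure D3:**
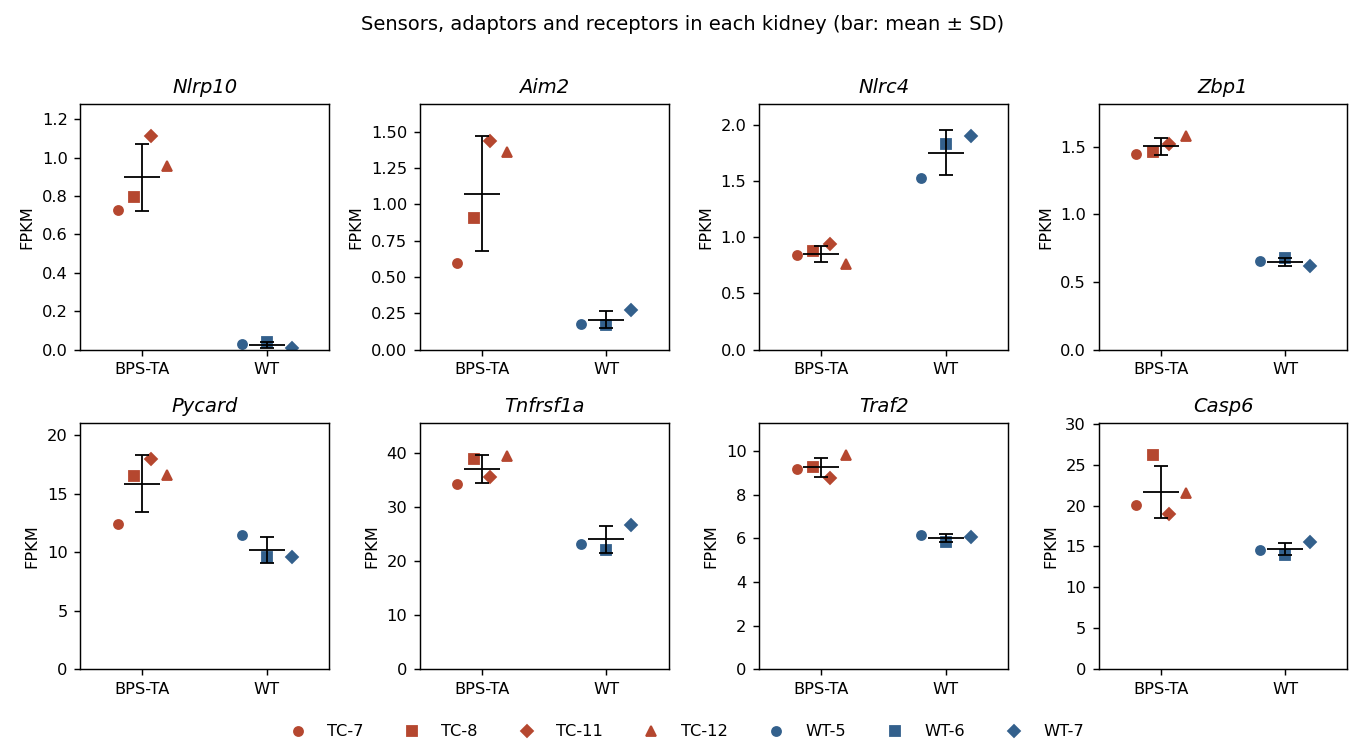
FPKM (vertical axes, each from 0) of 8 sensor, adaptor, receptor and caspase genes in each of 4 BPS-TA kidneys (red) and 3 WT kidneys (blue), with the mean ± SD as bars. Nlrc4 is lower in every BPS-TA kidney than in any WT kidney, whereas the other 7 genes are higher in every BPS-TA kidney.

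Of 15 tested genes of the list of apoptotic caspases and apoptosome, which holds Casp8, 5 were higher and none was lower, with a median of 0.17, where 28.5% of all tested genes were higher. Casp6, an executioner caspase gene, had 20.1, 26.1, 19.0 and 21.5 FPKM in the BPS-TA kidneys, against 14.6, 13.9 and 15.5 FPKM in the WT kidneys. The groups were separate (log2 fold change 0.52, adjusted p = 0.00686 from limma). The initiator genes Casp2 and Casp9 did not pass, with Casp2 at 6.52 ± 1.42 FPKM in BPS-TA kidneys and 5.02 ± 0.130 FPKM in WT kidneys (adjusted p = 0.110) and Casp9 at 9.89 ± 0.735 FPKM in BPS-TA kidneys and 9.49 ± 0.515 FPKM in WT kidneys (adjusted p = 0.595, both limma). Casp14, the caspase gene of the skin, was under 0.2 FPKM in every kidney. Birc5, the survivin gene of dividing cells, was higher with a log2 fold change of 0.54 (adjusted p = 0.00514 from limma) and reached an FPKM of 1 in BPS-TA kidneys alone.

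In the BCL2 family, which controls the mitochondrial path of apoptosis, 5 of 14 tested genes were higher and 1 was lower, with a median of 0.17. These shares are near the 28.5% and 6.56% of all tested genes. Bbc3, the p53 target gene that encodes PUMA, averaged 1.86 ± 0.341 FPKM in BPS-TA kidneys (SD, n = 4) and 0.656 ± 0.0970 FPKM in WT kidneys (SD, n = 3; log2 fold change 0.78, adjusted p = 0.00153 from limma), and reached an FPKM of 1 in BPS-TA kidneys alone. The death-promoting genes Bcl2l11 (BIM), Bok and Bak1 were higher with log2 fold changes of 0.42, 0.37 and 0.36 (adjusted p = 0.00413, 0.00359 and 0.0356 from limma). The last of the 5, Bcl2, encodes an inhibitor of apoptosis (log2 fold change 0.36, adjusted p = 0.0295 from limma). Bak1 did not pass without WT-6, WT-7, TC-11 or TC-12 (highest adjusted p = 0.118), nor Bcl2 without any 1 WT kidney, TC-11 or TC-12 (highest 0.0900). Bid, whose product carries the signal of caspase-8 to mitochondria, was lower, at 24.1 ± 2.37 FPKM in BPS-TA kidneys (SD, n = 4) and 30.3 ± 2.07 FPKM in WT kidneys (SD, n = 3; log2 fold change -0.32, adjusted p = 0.0211 from limma), a call lost without WT-6 or TC-11 (highest adjusted p = 0.0809).

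The list of death receptors and their ligands also held the Toll-like receptor genes Tlr3 and Tlr4 and the interferon receptor genes Ifngr1 and Ifnar1. Of its 9 tested genes 2 were higher and none was lower, with a median of 0.30. This was a share of 22.2% higher, against 28.5% of all tested genes. Tnfrsf1a, the main receptor gene for tumour necrosis factor, had 34.2, 38.9, 35.6 and 39.5 FPKM in the BPS-TA kidneys, against 23.2, 22.1 and 26.8 FPKM in the WT kidneys. The groups were well separated (log2 fold change 0.61, adjusted p = 0.00128 from limma). The interferon-γ receptor gene Ifngr1 was higher with a log2 fold change of 0.37 (adjusted p = 0.00657).

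Of the necrosome genes, a list that holds Casp8, Ripk1, Ripk3 and Mlkl, 3 of 7 tested were higher and none was lower, with a median of 0.095, against 28.5% higher of all tested genes. Zbp1, the nucleic acid sensor gene that can start necroptosis without a death receptor, had 1.45, 1.46, 1.52 and 1.58 FPKM in the BPS-TA kidneys, against 0.656, 0.677 and 0.620 FPKM in the WT kidneys. The groups did not overlap (log2 fold change 0.60, adjusted p = 7.93e-04 from limma), but as no WT kidney reached an FPKM of 1 Zbp1 entered the test only through the BPS-TA kidneys. Fadd, the adaptor gene that brings caspase-8 to death receptors, averaged 4.92 ± 0.209 FPKM in BPS-TA kidneys (SD, n = 4) and 4.06 ± 0.131 FPKM in WT kidneys (SD, n = 3; log2 fold change 0.23, adjusted p = 0.0258 from limma). Fadd did not pass without WT-6, WT-7, TC-11 or TC-12 (highest adjusted p = 0.0894), and its sign turned after quantile normalization (-0.030).

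Regulators of RIPK1 and caspase-8 gave 7 higher and 1 lower of 20 tested, with a median of 0.14, also near the 28.5% higher and 6.56% lower of all tested genes. Traf2, an adaptor gene of the receptor complex, averaged 9.26 ± 0.428 FPKM in BPS-TA kidneys (SD, n = 4) and 6.02 ± 0.166 FPKM in WT kidneys (SD, n = 3; log2 fold change 0.55, adjusted p = 5.67e-04 from limma). Birc3, the gene of the ubiquitin ligase cIAP2, and Mapkapk2, whose kinase phosphorylates RIPK1, were higher with log2 fold changes of 0.57 and 0.43 (adjusted p = 0.0301 and 6.66e-04 from limma). Tab3, which encodes a subunit of the TAK1 kinase complex, had one of 0.35 (adjusted p = 0.0305). Birc3 did not pass without WT-5, WT-7 or TC-12 (highest adjusted p = 0.0952), nor Tab3 without TC-7, TC-8, TC-12, WT-6 or WT-7 (highest 0.105). Cflar, which encodes the caspase-8 inhibitor c-FLIP, was the lower one, at 31.7 ± 1.59 FPKM in BPS-TA kidneys (SD, n = 4) and 36.4 ± 1.59 FPKM in WT kidneys (SD, n = 3; log2 fold change -0.19, adjusted p = 0.0335 from limma), a call lost without WT-6, WT-7, TC-7 or TC-11 (highest adjusted p = 0.119).

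The interferon and NF-kB regulators that are known to act on these genes had 7 of 10 tested genes higher and none lower, with a median of 0.40, where 28.5% of all tested genes were higher. Irf7, the regulator gene of interferon production, averaged 12.2 ± 1.62 FPKM in BPS-TA kidneys (SD, n = 4) and 5.75 ± 1.46 FPKM in WT kidneys (SD, n = 3; log2 fold change 0.99, adjusted p = 0.00246 from limma). The others with the highest log2 fold changes were the NF-kB subunit gene Relb at 0.54 and the genes Irf9 and Stat2 of the interferon-stimulated complex at 0.48 and 0.47 (adjusted p = 0.00399, 0.0155 and 0.00694 from limma). Irf9 did not pass without WT-6 or without WT-7, where its highest adjusted p was 0.0557. Outside the 8 genes, 34 genes of these lists passed, and 10 of them (Nlrc4, Casp6, Bbc3, Bok, Tnfrsf1a, Zbp1, Traf2, Mapkapk2, Irf7 and Nfkb1) did so in every alternative in which they were tested. Of these 10, Nlrc4, Bbc3 and Zbp1 had to differ to enter the test, since they reached an FPKM of 1 only in the group in which they were higher, and for them the count says nothing of stability. Of the other 24 calls, 21 were lost after quantile normalization and 15 with centring, some of them under both.

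**Figure D4:**
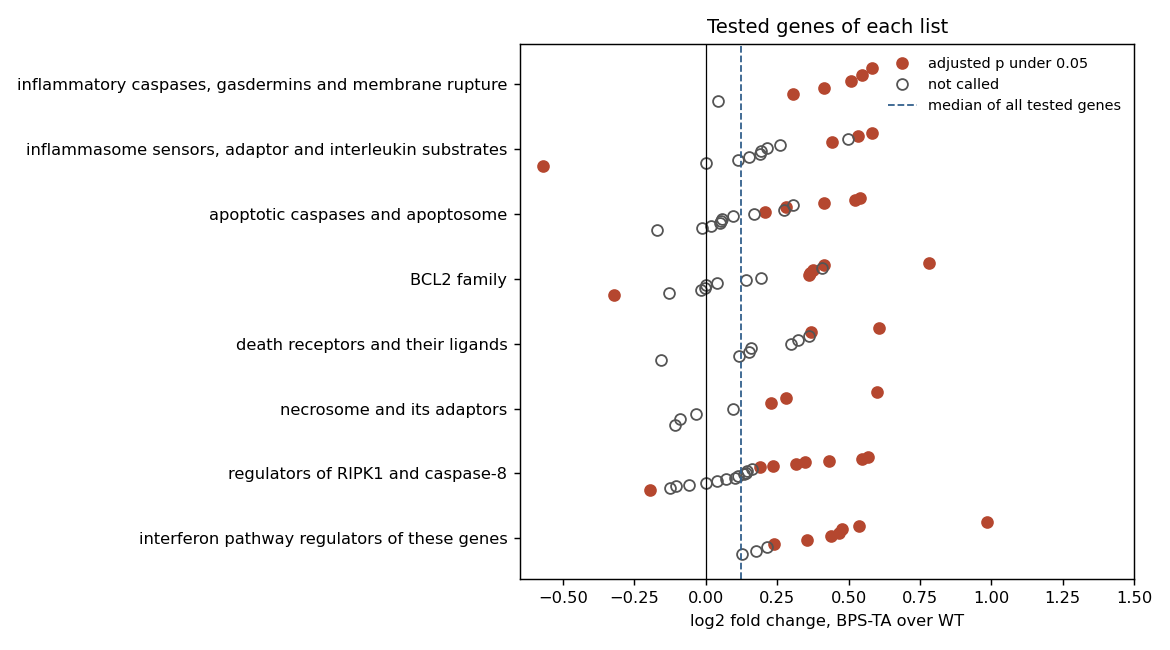
Log2 fold change of BPS-TA over WT kidneys (horizontal axis) for each tested gene of 8 lists (rows), filled where the adjusted p from limma was under 0.05, with the median of 0.12 of all tested genes as a dashed line. Genes that passed lie mostly to the right of this line, and Nlrc4, Bid and Cflar are the filled points below 0.

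Marker genes of several cell types differed between the groups as well. All 11 tested macrophage markers were higher, and their summed FPKM was 106 in TC-7, 107 in TC-8, 141 in TC-11 and, highest of all, 166 in TC-12, against 56.8 to 62.5 in WT kidneys. All 7 pan-leukocyte markers were higher (summed FPKM 92.5 to 119 in BPS-TA and 42.6 to 51.8 in WT kidneys), as were all 4 tested B and plasma cell markers (161 to 284 and 10.0 to 31.2) and all 8 endothelial markers (239 to 279 and 155 to 173). Of 7 tested fibroblast markers 5 were higher (36.9 to 77.2 in BPS-TA and 24.9 to 29.3 in WT kidneys). Of all tested genes 28.5% were higher. Cd79a, Cd79b and Mzb1 of the B and plasma cell list, Fcgr1 of macrophages and Postn of fibroblasts reached an FPKM of 1 in BPS-TA kidneys alone. They thus entered the test only through the group in which they were higher. Most of the B and plasma cell sum was Jchain (197 of 204 in TC-7). All the lists named so far had their highest summed values in TC-12. Casp1, Casp4, Gsdmd, Ripk3 and Mlkl were also highest there, whereas Casp8 had its lowest BPS-TA value there.

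Markers of the proximal tubule, in which the ggt promoter is active, went the other way. Of 12 proximal tubule markers 8 were lower and 1 was higher, where 6.56% of all tested genes were lower and 28.5% higher. Their summed FPKM was 5705 to 6731 in BPS-TA and 7626 to 8140 in WT kidneys, so the defining markers of the labelled cortex were present in all kidneys. The only tested marker of T and NK cells and the 2 tested of neutrophils did not pass. Summed FPKM was 4.48 to 7.30 in BPS-TA and 3.45 to 5.48 in WT kidneys for T and NK cells. For neutrophils it was 4.25 to 6.20 in BPS-TA and 6.05 to 11.1 in WT kidneys. The defining neutrophil marker S100a8 had 1.39 to 2.41 FPKM in BPS-TA and 2.50 to 3.53 FPKM in WT kidneys (adjusted p = 0.0807 from limma). Ly6g and Elane of the same list were at 0 in every kidney. The part of these cell types in the values of the 8 genes was not tested. Without TC-11 and TC-12, chosen after the data were seen because their macrophage markers were highest, 1 of the 8 genes (Casp8) was higher. TC-11 and TC-12 also had the highest summed fibroblast markers, and the cause of the lost calls was not tested. Over all genes 1926 then passed as higher, against 3425 with all kidneys. Casp4 then had a log2 fold change of 0.45 (adjusted p = 0.0980 from limma) and Gsdmd one of 0.30 (adjusted p = 0.207), while Casp1 and Casp12 no longer reached the minimum level.

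**Figure D5:**
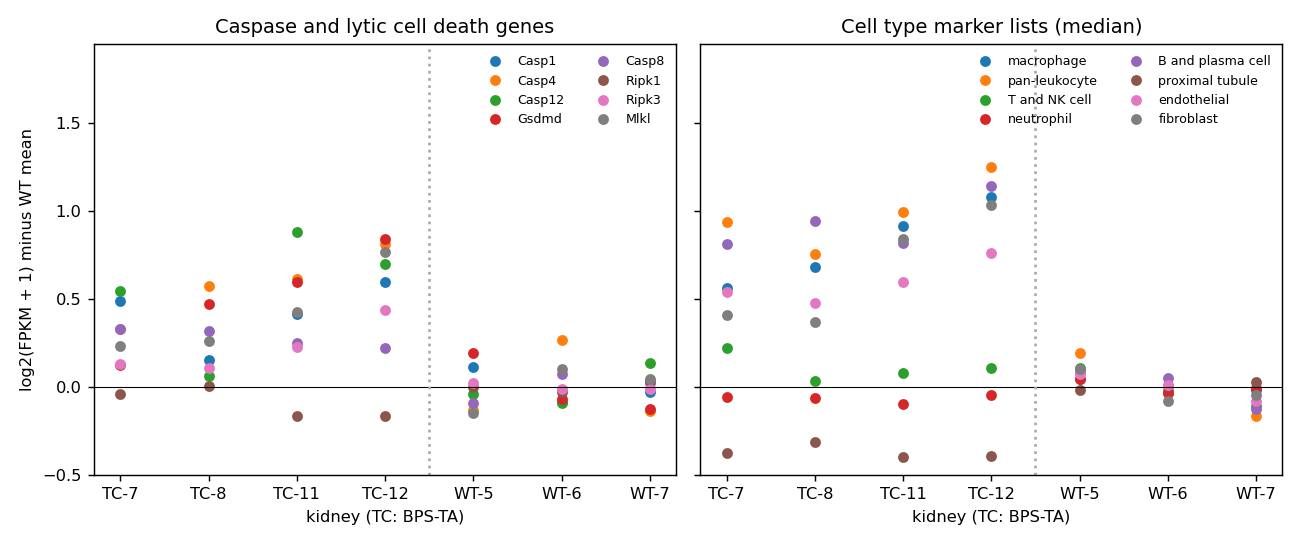
Log2(FPKM + 1) minus the WT mean (vertical axis) in each kidney (horizontal axis, with BPS-TA kidneys left of the dotted line and WT kidneys right of it) for the 8 genes (left panel) and for the median gene of each cell type marker list (right panel). In TC-12 Gsdmd stands 0.84, Casp4 0.81 and Mlkl 0.76 above the WT mean, and the macrophage median 1.08, while proximal tubule medians of BPS-TA kidneys lie between -0.40 and -0.32.

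Genes of the lists whose pattern over the 7 kidneys was most like that of each tested gene were ranked by Pearson's r of log2(FPKM + 1) among 143 list and marker genes. These values are a description without a test, since both groups enter them and all genes share the libraries. For Casp1 they were the leukocyte genes Cd53 (r = 0.950) and Ptprc (0.949) and the endothelial receptor gene Tek (0.943). For Casp4 they were the macrophage gene Aif1 (0.976), the NF-kB subunit gene Nfkb1 (0.963) and the matrix gene Postn (0.948). Both lists thus held a leukocyte gene at the top. For Casp12 they were the lipopolysaccharide receptor gene Tlr4 (0.973), Bcl2 (0.939) and the matrix gene Dcn (0.924), and for Gsdmd the channel gene Panx1 (0.973), the collagen gene Col3a1 (0.955) and the endothelial receptor gene Tie1 (0.951). Casp8 had Irf7 (0.925), Zbp1 (0.907) and Mapkapk2 (0.905). Ripk1 was most like the tubular transporter gene Slc34a1 (0.877), then Bid (0.808) and the tubular transporter gene Slc22a8 (0.804). These genes were lower in BPS-TA kidneys, and Ripk1, unlike the other 5, had a negative log2 fold change. As both groups enter r, its tubular neighbours do not set Ripk1 apart beyond that direction.

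The genes targeted by the guides showed no difference in transcript level that passed the test (adjusted p from 0.780 to 0.956 from limma for Bap1, Pbrm1 and Setd2), which does not measure editing. For BPS-TA kidneys the paper reports edits of Bap1 and Pbrm1 and none of Setd2. Totals of the deposited values ran from 1473813 to 1808843 per kidney, and the number of reads behind them is unknown.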

How the data were processed

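RNA of kidney cortex was read as single reads of 51 bases on a HiSeq2000 by the authors, whose processing notes name mm9 and DESeq 1.32. The FPKM that the authors deposited come from an aligner and a quantification program not given in the sources used here, and the unit itself was inferred, since the table (1 value per protein-coding gene and kidney) names none and its totals differ between kidneys. Of the values 714 lie above 0 and under 1e-06, as estimates by likelihood do, so neither reads nor depth could be recovered and no counting intervals are given. The authors' table of their own comparison (means, fold changes, test statistics and p-values) was not used. The paper counts 7 WT kidneys, and 3 were analysed here. Columns were assigned to groups by their names, TC or WT.

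Gene identifiers listed more than once (37, with 83 entries) were left out. Genes entered the test at FPKM 1 or more in 3 or more kidneys (12036 genes), and limma 3.58.1 (R 4.3.3) was fitted to log2(FPKM + 1) with the variance trend and no covariates. Adjustment was by Benjamini-Hochberg at 0.05, and the steps were tested on simulated data. Genes under the filter and ratios were compared by exact two-sided permutation tests over 35 splits (Python 3.11.15, numpy 2.4.6, pandas 2.3.3, scipy 1.17.1, matplotlib 3.10.9). Named are the 8 genes, the other caspases, and of each list up to 4 genes past the threshold with the largest changes and up to 2 in the other direction. Dfna5, Ninj1, Gsdma, Gsdmc, Bcl2, Nfkb1, Nlrp3, Nlrp10, Aim2, Il18 and Il1b and the genes of the closing observations were named outside this rule after their values were seen. Some genes that the rule names are left out of the text. The 8 genes and all lists were chosen with earlier results of these data known. Sequences are the 250 bases before RefSeq starts on GRCm38.p6, without the 50 bases after the start. Of the 8 genes 7 were matched by symbol, all but Gsdmd. Alternatives were quantile normalization, median centring, limma without trend, all genes unfiltered, a minimum FPKM of 1 in every kidney, a pseudocount of 0.1 and each kidney left out. Leaving out TC-11 and TC-12 together was added after the data were seen.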

Additional observations from a re-analysis of the deposited data

How the results depend on the processing

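No paired analysis was possible because the columns of values carry none of the replicate numbers in the labels. Depth is unknown, and genes near an FPKM of 1, such as Casp1 and Casp12, enter or leave the test with 1 kidney. Of all tested genes 4215 passed, 3425 higher and 790 lower in BPS-TA kidneys. Quantile normalization gave 1416 higher and 1724 lower, and median centring 1515 and 2480. Without TC-11 and TC-12 2372 passed, 1926 higher and 446 lower. With 1 kidney left out 2808 to 4206 passed, 2276 to 3301 higher (fewest without WT-7) and 484 to 905 lower (fewest without WT-6). For the scaling changes and the left-out kidneys the cause was not tested.

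Of the 8 genes, 5 were higher and 0 lower. The number higher was 0 after quantile normalization and with centring (each with 1 lower, Ripk1), 3 with no filter, 1 with an FPKM of 1 in every kidney, 1 without TC-11 and TC-12, and 1 to 4 with 1 kidney left out (1 without WT-7, 2 without WT-6, TC-11 or TC-12, 3 without WT-5 or TC-7). Fewer genes are tested with the stricter filter and more with none. The log2 fold changes after quantile normalization and with centring were 0.050 and 0.24 for Casp1, 0.25 and 0.41 for Casp4, 0.18 and 0.37 for Casp12, 0.21 and 0.33 for Gsdmd, 0.15 and 0.10 for Casp8 and -0.27 and -0.27 for Ripk1. With no filter Casp12 (0.55, adjusted p = 0.0753) and Gsdmd (0.51, adjusted p = 0.0724) did not pass. Without TC-11 and TC-12 neither Casp4 (0.45) nor Gsdmd (0.30) passed. With a pseudocount of 0.1 the log2 difference of Mlkl was 0.80 (p = 0.0286, exact permutation test). With 1 kidney left out log2 fold changes ran from 0.37 to 0.50 for Casp1 (not past the threshold without WT-6 or WT-7), 0.50 to 0.72 for Casp4 (not without WT-5 or WT-7), 0.50 to 0.71 for Casp12 (not without any 1 WT kidney), 0.40 to 0.63 for Gsdmd, 0.23 to 0.32 for Casp8, -0.12 to -0.067 for Ripk1, 0.15 to 0.27 for Ripk3 and 0.31 to 0.48 for Mlkl. Adjusted p over all alternatives (limma) ran from 0.00792 to 0.794 for Casp1, 0.0124 to 0.206 for Casp4, 0.00461 to 0.541 for Casp12, 0.0126 to 0.324 for Gsdmd, 0.00989 to 0.265 for Casp8 and 0.0180 to 0.875 for Ripk1. The difference for Casp12 relative to Casp4 (-0.033) ran from -0.21 to 0.13 and turned positive without WT-5 (0.011), WT-7 (0.11) or TC-8 (0.13).

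Passing genes of the lists were as follows. For the inflammatory caspases and gasdermins (5) there were 0 after quantile normalization, 0 with centring, 3 with no filter, 1 with an FPKM of 1 in every kidney, 0 without TC-11 and TC-12 and 1 to 4 with 1 kidney left out. For the inflammasome list (4) there were 2 after quantile normalization, 7 with no filter, 2 with an FPKM of 1 in every kidney, 2 without TC-11 and TC-12 and 3 to 5 with 1 kidney left out. After quantile normalization there were 2 of the apoptotic caspases (5), 3 of the BCL2 family (6) and 1 of the death receptor list (2). There were 5 of the regulators of RIPK1 and caspase-8 (8) and 2 of the interferon regulators (7, with 4 under centring). The regulators had 5 with no filter. Without TC-11 and TC-12 there were 2 apoptotic caspases, 2 of the BCL2 family, 1 of the necrosome (3), 3 regulators of RIPK1 and caspase-8 and 4 interferon regulators. With 1 kidney left out these lists had 4 to 5, 3 to 8 (3 without TC-11), 2 to 3 for the death receptor list, 2 to 3 for the necrosome, 3 to 6 and 5 to 7. No value could be had for Ripk3 and Mlkl after quantile normalization, without trend or with an FPKM of 1 in every kidney, for Casp1, Casp4, Casp12 and Gsdmd with the last of these, or for Casp1 and Casp12 without TC-7, TC-11 or TC-12, since they were then under the filter.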

Other observations

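Near-identical gene copies within the lists were all under the filter, and how reads were divided among them is unknown. Of the Bcl2a1 genes, which encode an inhibitor of apoptosis found mostly in blood cells, Bcl2a1b was listed at 0.539, 0.541, 0.542 and 0.540 FPKM in the BPS-TA kidneys, against 0 or under 1e-06 in all 3 WT kidneys. Bcl2a1a averaged 0.236 ± 0.124 FPKM in BPS-TA kidneys (SD, n = 4) and 0.0532 ± 0.00381 FPKM in WT kidneys (SD, n = 3), and Bcl2a1d 0.369 ± 0.204 FPKM in BPS-TA kidneys and 0.0821 ± 0.0764 FPKM in WT kidneys. The BPS-TA values of Bcl2a1b nearly coincided, unlike those of the other copies, and as the copies can share reads each single value is uncertain.

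The sensors of the NAIP family, which hand bacterial proteins to the product of Nlrc4, did not follow its lower level. Naip2 averaged 0.692 ± 0.0992 FPKM in BPS-TA kidneys (SD, n = 4) and 0.470 ± 0.0862 FPKM in WT kidneys (SD, n = 3), and Naip5 0.188 ± 0.0702 FPKM in BPS-TA kidneys and 0.0874 ± 0.0539 FPKM in WT kidneys. Both were higher in every BPS-TA kidney than in any WT kidney (p = 0.0571 for Naip2 and 0.0857 for Naip5, exact permutation tests). The same held for Naip6 (p = 0.0571, exact), while for Naip1 the groups overlapped (p = 0.314, exact). These related copies may share reads and were too low to be tested with limma.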
